A study of Mus musculus with 36 samples.

Results

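Hand phalanx regions are stretches of open chromatin that were called in at least 2 of the 3 peak lists from the finger bones of the mouse hand and in at most 1 of the 9 peak lists from the other parts of the hand and foot. The peaks of all 12 lists were merged where they shared at least 1 base pair, which gave 65543 regions, and 705 of these (1.08%) met the rule. Open chromatin was measured by ATAC-seq, in which a transposase inserts sequencing adapters into accessible DNA. The tissue was chondrocytes of FVB/NJ embryos at day E15.5, with no treatment and no other genotype in any group. The 12 groups were the hand phalanges, the foot phalanges, the metacarpals (the long bones of the palm) and the metatarsals (the long bones of the sole), each from digit I (thumb or big toe), digit III and digit V. Digit I phalanges were the proximal and distal bones, and those of digits III and V included the intermediate bone as well. Each group had 3 libraries, 36 in all, and every library pooled both sides of 6 to 10 limbs from embryos of 1 litter. The authors called peaks on the pooled libraries of a group, so a list stands for its group without a replicate error, and the read depth behind a call is unknown beyond the labels' target of at least 40 M reads a library. Calls in all 12 lists chose the regions, so every count of calls below is a description, with no test.

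The phalanges form by segmentation of cartilage rods. An interzone rich in Gdf5 interrupts each rod where a joint will form, while chondrocytes on either side proliferate, become hypertrophic and are replaced by bone. Forelimb and hindlimb cartilage use largely the same genes for this programme, and differences in shape between bones are widely attributed to regulatory DNA, such as enhancers, which are often far from the gene they act on. Open chromatin marks promoters and enhancers that are accessible to transcription factors, but an open region by itself does not show which gene it acts on or whether it is active. Each region was therefore named for the protein-coding gene whose start or end was closest to it, within 1 Mb, which is a label of position and not of a target.

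Few hand phalanx regions lay on annotated transcription starts. Among the 682 on chromosomes with promoter windows, 23 (3.37%) overlapped a RefSeq promoter window of 300 bases, from 250 before the start to 50 after it, against 21% of all regions. The shares for foot phalanges, metacarpals and metatarsals, chosen by the same rule with the groups exchanged, were 4.30%, 3.41% and 2.97%. The 25 windows touched had a median GC content of 52.3% and a median of 5 CpG dinucleotides, close to the 52.7% and 7 over all 32851 windows. Promoters in regions called in all 12 lists had 61.3% GC and 20 CpG (median of 16062 windows). Windows of 5 genes are printed from RefSeq (GRCm38.p6, the same coordinates as mm10), 5′ to 3′ on the strand of the gene, with matches to the searched motifs in capitals. Runx2 is shown because it is the skeletal regulator among these genes, and Pde4a because its other annotated starts were open everywhere. Cp and F2rl3 are shown as examples of windows that no list outside the hand phalanges called. The same held for Meioc, Zfp996, Gpha2, Fcer2a and 5430431A17Rik, which are not printed. Another Cp window (chr3:19956804-19957103), in the same region, is not printed either. Neurog3 is shown as a CpG-rich window (19 CpG), although those of Meioc (28) and Zfp996 (25), not printed, were richer. The Runx2 window is chr17:44814578-44814877 on the minus strand. On the plus strand lie those of Pde4a (chr9:21196455-21196754), Cp (chr3:19956999-19957298), F2rl3 (chr8:72761409-72761708) and Neurog3 (chr10:62132840-62133139).
Runx2: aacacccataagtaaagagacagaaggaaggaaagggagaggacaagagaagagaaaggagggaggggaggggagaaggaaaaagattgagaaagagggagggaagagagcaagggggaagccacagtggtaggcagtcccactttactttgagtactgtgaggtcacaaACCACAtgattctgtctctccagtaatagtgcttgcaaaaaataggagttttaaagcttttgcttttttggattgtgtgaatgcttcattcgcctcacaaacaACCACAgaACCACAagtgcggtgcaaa
Pde4a: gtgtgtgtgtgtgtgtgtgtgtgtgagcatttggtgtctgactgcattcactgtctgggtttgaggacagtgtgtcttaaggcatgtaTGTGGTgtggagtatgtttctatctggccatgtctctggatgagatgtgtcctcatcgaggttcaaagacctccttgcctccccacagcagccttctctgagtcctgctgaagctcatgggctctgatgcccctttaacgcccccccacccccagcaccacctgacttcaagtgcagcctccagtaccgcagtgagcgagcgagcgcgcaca
Cp: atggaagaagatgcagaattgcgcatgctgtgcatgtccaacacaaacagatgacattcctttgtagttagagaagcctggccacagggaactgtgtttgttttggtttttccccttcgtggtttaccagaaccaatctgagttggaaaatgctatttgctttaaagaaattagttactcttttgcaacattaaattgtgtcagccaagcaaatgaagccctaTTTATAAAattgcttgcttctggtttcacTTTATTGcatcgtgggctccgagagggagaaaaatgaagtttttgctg
F2rl3: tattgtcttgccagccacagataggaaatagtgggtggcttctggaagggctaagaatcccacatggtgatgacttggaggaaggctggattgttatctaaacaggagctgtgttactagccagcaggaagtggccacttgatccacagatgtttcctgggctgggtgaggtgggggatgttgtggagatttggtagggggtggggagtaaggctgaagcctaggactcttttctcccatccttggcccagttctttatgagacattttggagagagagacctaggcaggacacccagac
Neurog3: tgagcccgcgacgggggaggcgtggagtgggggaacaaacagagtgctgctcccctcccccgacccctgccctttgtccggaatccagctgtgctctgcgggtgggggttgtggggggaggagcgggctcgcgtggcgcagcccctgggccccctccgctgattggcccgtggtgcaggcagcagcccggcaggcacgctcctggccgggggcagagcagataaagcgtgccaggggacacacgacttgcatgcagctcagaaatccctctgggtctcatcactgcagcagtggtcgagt

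5 motifs were searched on both strands of these windows, none of which contains another. The core of the RUNX site, TGTGGT, occurred in 8 of the 25 windows (32%), against 16.8% of all 32851. The AP-1 site TGANTCA occurred in 2 (8%) against 7.81%, the SOX core ACAATG in 2 (8%) against 12.6%, the posterior HOX core CAATAAA in 1 (4%) against 4.6%, and the TATA box TATAAA in 4 (16%) against 13.6%. With so few windows these shares are a description, and a match is not a bound site. The windows of Ankdd1b overlap each other, as do those of Cp, so a match there can be counted more than once. The Runx2 window, the start of the gene for the transcription factor that drives osteoblast formation and chondrocyte hypertrophy, held 3 RUNX cores in reverse orientation, which read ACCACA on the printed strand. They begin 80 bases before the start and 23 and 31 bases after it. This region was called in the hand phalanx lists of digits III and V and in the foot phalanx list of digit III. The Pde4a window, which serves a cyclic AMP phosphodiesterase, held 1 RUNX core 162 bases before the start. The starts of Pde4a at 21165714 and 21184101 on chromosome 9 lay in regions called in all 12 lists, whereas the printed one was called in hand phalanges III and V and foot phalanges I. The Cp window, at a start of the gene for ceruloplasmin, the copper-carrying ferroxidase of plasma, had TATA boxes on both strands 25 and 27 bases before the start and a reversed HOX core 2 bases after it, where the printed strand reads TTTATTG. It was called in hand phalanges I and III and in no other list. The F2rl3 window, for a thrombin receptor, had 51.3% GC and 0 CpG and was called in hand phalanges III and V alone. The Neurog3 window, for a transcription factor of endocrine pancreas, had 68.3% GC and 19 CpG, matched no motif, and was called in hand phalanges I and III and metatarsals I.

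The label "specific to hand phalanges" holds only in the sense of the rule. Of the 705 regions, 291 (41.3%) were called in no other list and 414 (58.7%) in exactly 1. The most frequent form was a call in 2 hand phalanx lists and 1 other list, with 373 regions (52.9%), followed by 2 hand phalanx lists and no other, with 284 (40.3%). A call in all 3 hand phalanx lists was rare, at 48 regions (6.81%). The same rule with the groups exchanged chose 2145 foot phalanx regions (3.27% of all regions), 1824 metacarpal regions (2.78%) and 1149 metatarsal regions (1.75%), of which 33.2%, 15.35% and 21.8% were in all 3 lists of their group. Called in all 3 lists of the group and in no other were 7 hand phalanx regions (0.993%), against 323 foot phalanx, 78 metacarpal and 63 metatarsal regions. The set rested mostly on the lists of digits III and V. Hand phalanges III and V alone made 478 regions (67.8%), I and III 140 (19.9%), and I and V 39 (5.53%). Without the digit III list, when both remaining hand phalanx lists must hold a call, 87 regions were left, and without the digit V list 188. The weakest peak kept differed between lists, with a −log10 p-value of 48.45 in hand phalanges I, 36.41 in III and 27.66 in V. Limiting every list to the 36194 peaks of the shortest gave 775 hand phalanx, 1728 foot phalanx, 1743 metacarpal and 917 metatarsal regions, of which the hand phalanx set had 57.5% from III and V, 13.9% from I and III, 18.3% from I and V and 10.2% from all 3. The part of the list ends in the digit pattern was not tested beyond this.

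The hand phalanx lists held open regions near cartilage genes, outside the rule-chosen regions. Sox9, the master regulator of chondrocytes, had 31 regions. Of these, 13, 9 and 7 were called in hand phalanges I, III and V, and 6 to 20 in the other lists. Col2a1, the main cartilage collagen, had 3 regions, of which 2 were called in each hand phalanx list. Gdf5 had 2 regions, both called in each hand phalanx list. None of these regions was a hand phalanx region. The same was true of 9 regions of Msx1, a homeobox gene expressed at digit tips, 3 of Hoxa13, which patterns the autopod, 13 of Tbx5, the forelimb T-box gene, and 6 of Pitx1, the hindlimb homeobox gene. No region was nearest to Hoxd13. Such calls do not set cartilage apart from other tissues. Of the regions nearest to genes of resting and proliferating chondrocytes, 27.4% were called in all 12 lists. The share was 26.5% for muscle, 25.8% for endothelium, 27% for blood, 25% for nerve and 40.6% for epidermis genes. Over all regions with a gene it was 35.7%.

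Hand phalanx regions were weak peaks in the lists that held them. The fold enrichment of a peak over background, as the authors' peak caller gave it, was ranked within its list from 0 (lowest) to 100, since folds of different lists are not on a common scale. Hand phalanges I held 227 of the regions, with a median fold of 6.56 against 12.26 over the whole list and a median percentile of 9.09 (quartiles 3.84 and 17.95). Hand phalanges III held 666 at a median fold of 6.33 against 10.67, percentile 15.16 (7.70 and 25.43). Hand phalanges V held 565 at 5.66 against 9.55, percentile 12.88 (6.46 and 21.87). The peaks below the median of their list were 227 of 227, 663 of 666 and 563 of 565. The 1 other list that held a call had it at a median percentile of 13.03. In such bulk tissue, a region open in few cells and one weakly open in many cannot be told apart. The sets chosen by the same rule for foot phalanges, metacarpals and metatarsals had median percentiles of 15.26, 17.88 and 13.69, beside 14.19 for hand phalanges. Regions were also short, with a median of 1244 bp (quartiles 965 and 1887), against 1824 bp for foot phalanx regions, 1560.5 for metacarpal regions, 1634 for metatarsal regions and 2360 for all regions. The width of a merged region rose with the number of lists that called it. With 2 hand phalanx lists and 0, 1, 2 or 3 others the median was 1062.5, 1436, 1686 and 2047 bp. The rule limits that number, so these widths are not a like comparison.

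**Figure D1:**
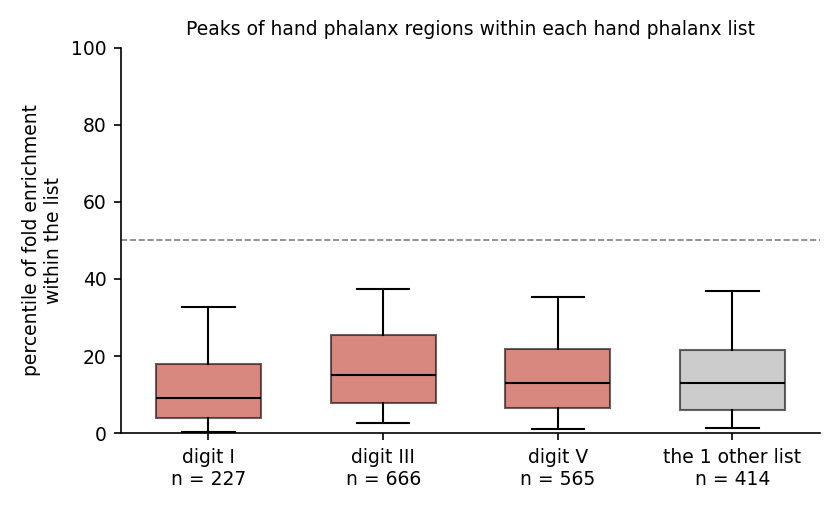
Percentile of fold enrichment within the list (vertical axis, 0 lowest, 100 highest) for peaks of hand phalanx regions in the hand phalanx lists of digits I, III and V and in the 1 other list where there was one; boxes show the quartiles with the median, whiskers the central 90% of regions. The medians of 9.09, 15.16, 12.88 and 13.03 all sit far below the dashed line at the median of a list.

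3 regions were exceptions, each with its strongest peak above the median of its list. A region 640.6 kb downstream of Nxph1, a gene for a secreted ligand of neurexins (chr6:9889936-9890482), had folds of 1376.6 in hand phalanges III, 853.3 in V and 959.7 in foot phalanges I. A region 220 kb downstream of Ajap1, for an adherens junction protein (chr4:153153037-153153479), had folds of 52.72, 40.76 and 48.02 in the same lists. The third lay 2.707 kb from Mrln, for a micropeptide of skeletal muscle (chr10:70221816-70223021), with folds of 8.76 in hand phalanges I, 19.62 in III and 5.683 in foot phalanges III. These 3 were singled out after their values were seen. The folds near Nxph1 and Ajap1 are far above the list medians of 10.67 in III and 9.55 in V, the lists were not screened here for regions prone to spurious signal, and an artefact of mapping at these 3 regions was not tested. At the edge of the rule, the 373 regions in 2 hand phalanx lists and 1 other had a median percentile of 14.3, and the 449 regions just outside, in 2 hand phalanx lists and 2 others, had 16.1. The 1427 regions in 1 hand phalanx list and no other had 7.7, and the 72 in all 3 and in 2 others 17.1.

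The second question was which other element shared the open state, where the rule allowed 1 call in any of the 9 other lists. The extra calls went mostly to the same kind of bone in the other limb. Foot phalanges held 266 of 414 (64.3%), metacarpals 122 (29.5%) and metatarsals 26 (6.28%). By list, foot phalanges I held 104, III 74 and V 88 of the regions, metacarpals I 11, III 77 and V 34, and metatarsals I 22, III 4 and V 0. Lists differ in length, so the calls were divided by the called regions of each list. Foot phalanges then held 28.64 (I), 16.47 (III) and 23.25 (V) per 10000, metacarpals 3.218, 15.37 and 9.518, and metatarsals 4.97, 0.9563 and 0. Per 10000, the foot phalanx list of each digit stood above both metapodial lists (metacarpals and metatarsals), narrowly so in digit III. On that scale alone, the 3 foot phalanx lists did not overlap the 6 metapodial ones. The means were 22.8 ± 6.09 (SD, n = 3 lists) and 5.67 ± 5.83 (n = 6 lists), a difference of 17.1 per 10000. These calls entered the rule, so the difference carries no test. As a plain number of calls it was 64 regions, and by plain number the lists did overlap, with 77 in metacarpals III and 74 in foot phalanges III. The rule was also applied with 1 list left out. The difference was then 12.1 per 10000 without hand phalanges I, 2.82 without III and 4.74 without V, and 26.7, 27.9 and 33.3 without foot phalanges I, III and V.

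**Figure D2:**
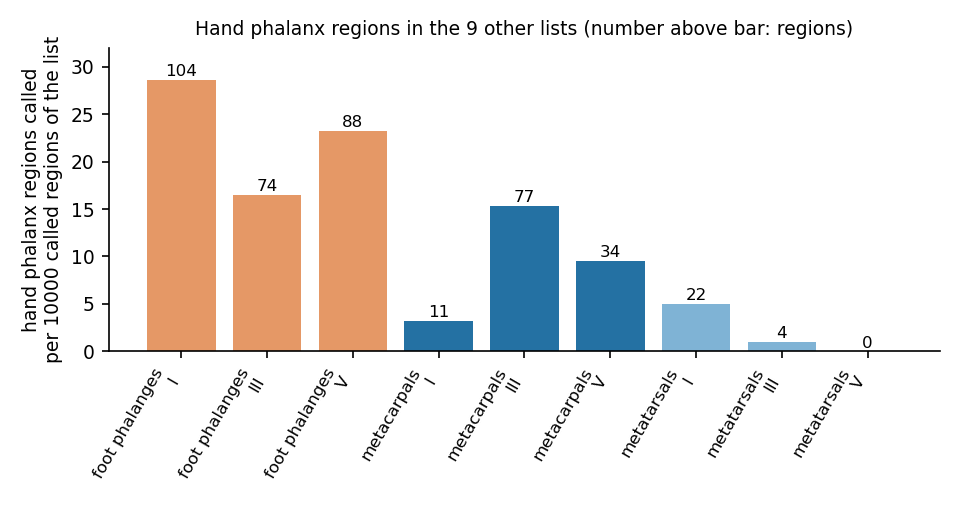
Number of hand phalanx regions called in each of the 9 other lists per 10000 called regions of that list (bars from 0), with the number of regions above each bar. Foot phalanx lists (28.64, 16.47 and 23.25) stand above the metapodial lists, of which metacarpals III (15.37) comes nearest.

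The other 3 sets, each chosen by its own lists, were read in the same way. Foot phalanx regions had 539 of 1054 extra calls (51.1%) in hand phalanges, 429 (40.7%) in metatarsals and 86 (8.16%) in metacarpals. Metacarpal regions had 62.6% of 1023 in metatarsals and 27.5% in hand phalanges, and metatarsal regions had 69.4% of 794 in metacarpals and 4.28% in hand phalanges. In all 4 sets the same kind of bone in the other limb held the largest share. The digit of the extra call varied with the digits that made the hand phalanx region. Of the 478 regions of hand phalanges III and V, 85 had a call in foot phalanges I, 59 in V and 15 in III. A further 40 had a call in metacarpals III and 29 in metacarpals V, and 236 had none. Of the 140 regions of hand phalanges I and III, 41 had a call in foot phalanges III, 29 in metacarpals III and 9 in foot phalanges I.

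Hand phalanx regions lay far from genes. The median distance from the centre of a region to the nearest end of a protein-coding gene was 53.2 kb, against 37.25 kb for foot phalanx regions, 40.5 kb for metacarpal regions, 49.3 kb for metatarsal regions, 36.7 kb for regions called in 2 to 4 lists and 20.75 kb for all regions. More than 100 kb away were 265 (37.6%), against 26.6%, 26% and 30.5% in the 3 other sets and 18.7% of all regions. Inside a gene lay 295 (41.8%), against 47.6%, 49.7%, 43.6% and 55.3%. Within 1 kb of a gene end lay 24 (3.4%; Wilson 95% interval 2.3 to 5.02%, for counting error only), against 2.61%, 2.41% and 1.83% in the 3 other sets, 3.09% of regions in 2 to 4 lists and 39.05% of those in all 12 lists. These shares near gene ends were low in all 4 sets, and no test was made between sets that share lists. The nearest region called in all 12 lists was a median of 53.7 kb away, against 30.6, 29.4 and 34.8 kb. The 692 regions with a gene within 1 Mb were nearest to 638 different genes, and 47 genes had 2 or more. Neighbouring hand phalanx regions less than 50 kb apart made 17 pairs, and 0 annotated miRNA hairpins fell in a region.

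The distance differed with the digits that made the region. Regions of hand phalanges III and V had a median distance of 63.7 kb, with 42.3% more than 100 kb away and 34.5% inside a gene. Regions of hand phalanges I and III had 27.3 kb, 29.3% and 58.6%, and those of I and V 23.9 kb, 23.1% and 59%. Regions in all 3 hand phalanx lists had 54 kb, 27.1% and 52.1%. Median widths were 1104 bp for III and V, 1832 bp for I and III, 2149 bp for I and V and 1498.5 bp for all 3. On autosomes alone the 429 regions of III and V had 58.4 kb, with 39.4% more than 100 kb away. Regions of digits III and V in the sets of foot phalanges, metacarpals and metatarsals had medians of 39.2, 44 and 49.5 kb. Lists of equal length gave 775 hand phalanx regions, and 295 of the 705 (41.8%) remained there. In that set the share more than 100 kb from a gene end was 31.6% and the median 41.2 kb. Metatarsal regions then had 32.4% and 46.8 kb, so hand phalanx regions were no longer the farthest of the 4 sets (foot phalanges 26.5% and 36.8 kb, metacarpals 25.6% and 37.5 kb).

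**Figure D3:**
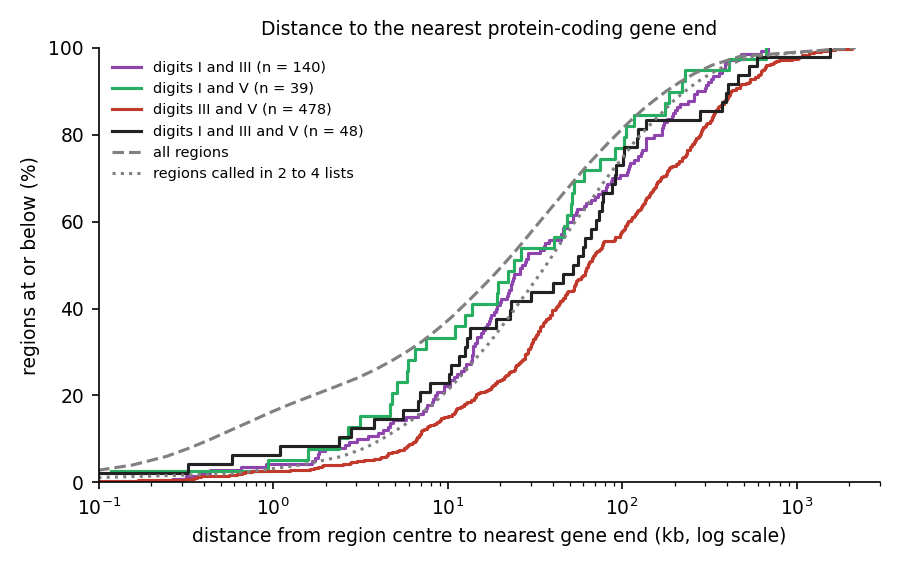
Cumulative share of regions (vertical axis, %) by distance from the region centre to the nearest protein-coding gene end (horizontal axis, kb, log scale), for hand phalanx regions by the hand phalanx lists that held them, all regions (dashed) and regions called in 2 to 4 lists (dotted). The line for digits III and V runs to the right of the others over most of the range, with its median at 63.7 kb.

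Chromosome Y, and to a lesser degree X, had a higher share of hand phalanx regions than any autosome. Of 141 regions on chromosome Y, 18 (12.8%) were hand phalanx regions, and of 1504 on X, 35 (2.33%), while autosomes ranged from 0.618% (chromosome 9) to 1.43% (chromosome 5). For foot phalanx regions the shares were 0 regions on Y and 0.798% on X, for metacarpal regions 4.26% and 2.59%, and for metatarsal regions 0 regions and 0.731%. The 4.26% on Y stood for 6 metacarpal regions. With lists of equal length, 0 metacarpal regions lay on Y, beside 17 hand phalanx regions. The 18 regions on Y were called in 1 case in hand phalanges I, in all 18 in III and V, in 11 in metacarpals V and in 1 in metacarpals III. The number of Y regions also differed between whole lists, at 30, 78 and 65 in hand phalanges I, III and V, 29, 23 and 30 in foot phalanges, 11, 52 and 112 in metacarpals and 37, 26 and 20 in metatarsals. The lists with the most Y regions were thus metacarpals V and hand phalanges III and V. Their part in the count of hand phalanx regions was not tested beyond leaving the sex chromosomes out, which left 652 regions and a difference in extra calls between foot phalanx and metapodial lists of 17 per 10000. On Y, 7 regions were nearest to Gm20873, a predicted gene with many near copies in that part of the chromosome, so that reads there may be shared between copies. The share of male embryos in each pool is not known here, and its part in the calls on Y and X was not tested.

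Some hand phalanx regions lay near chemosensory receptor genes. The families were picked for description after values were seen, so their shares carry no test. Olfactory receptors (Olfr), which detect odours in the nose, had 122 regions nearest to them, of which 12 (9.84%) were hand phalanx regions, and vomeronasal receptors (Vmn), which detect pheromones, had 4 of 70 (5.71%). Over all regions with a gene, 1.06% were hand phalanx regions. Of all regions with a gene, 0.187% were nearest to Olfr and 0.107% to Vmn genes. Among hand phalanx regions with a gene these shares were 1.73% and 0.578%. The 16 receptor regions made 2.27% of the hand phalanx regions, against 0.14% of foot phalanx, 0.274% of metacarpal and 0.174% of metatarsal regions. With lists of equal length the shares were 1.94%, 0%, 0.402% and 0.218%. Of the 16, 14 were called in hand phalanges III and V, 1 in I and V and 1 in all 3. A neighbouring pair lay on chromosome 6 by Olfr211 (chr6:116480017-116481017; folds 9.08 in III, 5.51 in V and 6.17 in foot phalanges I) and Olfr212 (chr6:116515331-116516744; 5.75, 5.8 and 5.34 in metatarsals I). Another pair lay by Vmn2r21 and Vmn2r22 on the same chromosome, with folds of 7.99 and 8.24 in III and 7.71 and 8.37 in V. Receptor families are rich in near copies, and how reads were divided between such copies is not known. Over whole lists, regions near receptor genes numbered 18.8, 28.3 and 30.7 per 10000 in hand phalanges I, III and V, 25.1, 19.6 and 19.6 in foot phalanges, 19.3, 26.2 and 26.3 in metacarpals and 23.3, 21.3 and 20.8 in metatarsals. Hand phalanges III and V were the highest of the 12, above metacarpals III and V by a small margin.

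**Figure D4:**
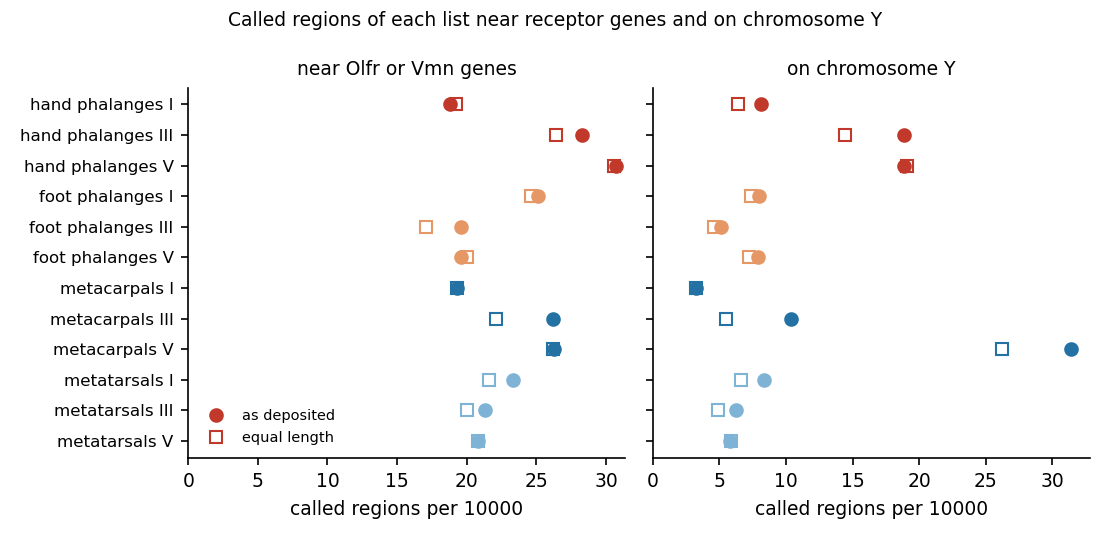
Called regions per 10000 in each of the 12 lists (rows) that are nearest to an Olfr or Vmn gene (left) or on chromosome Y (right), as deposited (filled circles) and with lists of equal length (open squares). Hand phalanges III and V (28.3 and 30.7 near receptor genes) are at the right end of the left panel, and metacarpals V at the right end of the right panel.

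Genes of limb patterning and cartilage had few hand phalanx regions. Of 2033 regions nearest to the 238 genes of 16 lists (limb patterning, joints, chondrocytes, bone, and markers of other cell types), 12 (0.59%) were hand phalanx regions, against 1.06% of all 65362 regions with a gene. For the other sets the corresponding shares were 4.67% against 3.28% (foot phalanges), 3.74% against 2.78% (metacarpals) and 1.92% against 1.75% (metatarsals). Genes of limb identity had 0 of 57, the posterior HoxA and HoxD genes 0 of 7, and prehypertrophic and hypertrophic chondrocytes 0 of 113. Anterior-posterior patterning had 2 of 301 and the distal limb and digit tip 1 of 106. Joint genes had 1 of 220, brachydactyly genes, named for inherited shortening of the digits, 1 of 292, resting and proliferating chondrocytes 2 of 212, growth plate signalling 2 of 334, and perichondrium and osteoblasts 2 of 135. Among markers of other cell types, tendon had 1 of 67, and muscle (34), endothelium (66), blood (74), epidermis (32) and nerve (36) had 0. Beside a share of 1.06% over all regions with a gene, a list with 0 here has too few regions to show a lack.

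The first of the 12 regions lay near genes that pattern the limb, the joints and the digits. Shh, the secreted signal of the posterior limb margin, had 4 regions, of which the hand phalanx region (chr5:28446916-28447564) lay 9.6 kb from the gene with folds of 8.05 in hand phalanges III, 6.54 in V and 8.02 in foot phalanges I. It was among the stronger of the 12, at percentiles 34.6 and 26.9. Sall3, a zinc finger factor of the autopod, had a region inside the gene (chr18:80971069-80974607) with folds of 5.5 in III and 6.24 in V and no other call. Rspo2, a secreted amplifier of Wnt signalling needed for limb outgrowth, had a region 143 kb away (chr15:42876913-42877959) with folds of 5.69 in III and 5.8 in V and no other call. Osr1, a factor of irregular connective tissue and joints, had a region 76.7 kb away (chr12:9496382-9499152) with folds of 6.78 in hand phalanges I, 5.69 in III and 6.48 in foot phalanges III. Pde4d, a cyclic AMP phosphodiesterase mutated in a human acrodysostosis with short digits, had 71 regions, and the 1 in the set (chr13:109631284-109634109), inside the gene, had folds of 7.01 in I, 6.2 in III and 7.38 in metacarpals I.

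Cartilage and bone genes gave 6 more, and tendon the last. Sox6, a partner of Sox9 in chondrocytes, had 35 regions, and its hand phalanx region inside the gene (chr7:115588908-115589951) was the highest ranked of the 12, with folds of 8.31 in III (percentile 36.6), 6.9 in V and 5.55 in metacarpals III. Col9a2, a chain of the cartilage collagen IX, had a region 10.4 kb upstream (chr4:121028578-121029774) with folds of 6.56 in I, 5.62 in III and 6.25 in metacarpals III. Npr3, the clearance receptor for C-type natriuretic peptide, a stimulator of bone growth, had a region 27.7 kb downstream (chr15:11811496-11812899) with folds of 5.5 in III, 5.51 in V and 6.08 in foot phalanges I. Smad6, an inhibitor of BMP signalling, had a region inside the gene (chr9:63954369-63957151) with folds of 6.1 in I, 5.29 in V and 5.59 in foot phalanges V. The region at the Runx2 start printed above (chr17:44813687-44815573) was weak, with folds of 5.75 in III, 5.14 in V and 5.4 in foot phalanges III, and Runx2 had 13 regions, of which 3, 7 and 6 were called in hand phalanges I, III and V. Pdgfra, a receptor of mesenchymal progenitors, had a region 111 kb downstream (chr5:75309399-75310011) with folds of 6.5 in I and 6.26 in III and no other call. Tnc, a matrix protein of tendon and perichondrium, had a region 408 kb upstream (chr4:64454644-64456023) with folds of 7.09 in III and 5.29 in V and no other call.

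**Figure D5:**
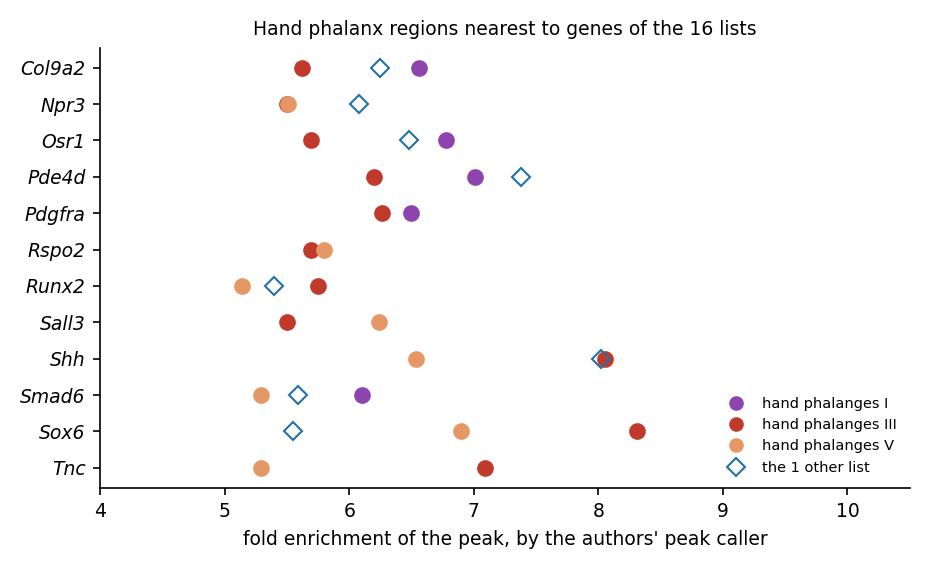
Fold enrichment of the peaks (horizontal axis, from the authors' peak caller) of the 12 hand phalanx regions nearest to genes of the 16 lists (rows), in hand phalanges I, III and V (circles) and in the 1 other list where there was one (diamonds). Folds in the hand phalanx lists lie between 5.14 (Runx2 in V) and 8.31 (Sox6 in III), and folds of different lists are not on a common scale.

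Outside these lists, the 12 genes with the most hand phalanx regions were named, at least 2 each, with ties in alphabetical order. After Gm20873, with 7 of its 24 regions, came Nova1, which encodes a neuronal splicing factor, with 3 of 11, and Snurf, in the imprinted Snrpn locus, with 3 of 16. The 3 regions of Nova1 lay 653 kb downstream and 178 and 766 kb upstream, all called in hand phalanges III and V, with folds of 5.82, 6.45 and 7.92 in III. The 3 of Snurf had folds of 6.07, 6.01 and 6.01 in III. Those at chr7:60155519-60156165 and chr7:60162759-60163842 lay inside Snrpn, 151 and 158 kb upstream of Snurf. The other 9 genes had 2 each. Cox7b2, for a testis form of a cytochrome oxidase subunit, was the case in which both assigned regions were in the set, called in III and V and nowhere else with folds of 7.22 and 5.51 (chr5:71388404-71389386) and 6.07 and 6.24 (chr5:71555998-71557473). Cp had a second region (chr3:20013414-20015172) 4.54 kb downstream with folds of 6.27 in I, 5.62 in III and 5.02 in metacarpals III. Arid1b, for a subunit of the BAF chromatin remodelling complex, had 2 of 38 regions, and Auts2, a gene of neural development, 2 of 35, both inside the gene. The remaining 5 were 4931408C20Rik, 4933402E13Rik, Aadat, Cnbd1 and Cylc2. Of these 10 regions, all were called in III and V, and those of Cylc2 had the highest folds in III, 8.05 and 8.5.

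The 7 regions called in all 3 hand phalanx lists and in no other were the strictest form of the set. Near Kcnj6, for a G protein-gated potassium channel (chr16:94736572-94739421, 6.98 kb downstream), folds were 6.9 in I, 8.5 in III and 6.61 in V. Inside Myh13, for a myosin of eye muscles (chr11:67357587-67358762), they were 7.86, 5.88 and 5.88. Inside Zfp444, for a zinc finger protein (chr7:6188708-6191881), they were 6.95, 6.52 and 5.36. Sorcs1 and Sorcs3, of the SorCS family of sorting receptors, appeared on the same chromosome, each region far from its gene. Sorcs1 (chr19:51142422-51142783, 463 kb upstream) had folds of 8.25, 5.69 and 5.8, and Sorcs3 (chr19:49340299-49341595, 535 kb downstream) 6.05, 7.73 and 6.83. Grid2ip, for a scaffold protein of cerebellar synapses (chr5:143357369-143358448, inside the gene, 0.578 kb from its start), had 7.06, 5.62 and 6.83. Neurl3, for a ubiquitin ligase (chr1:36287315-36287922, 12.9 kb upstream), had 6.44, 5.56 and 5.36. None of the 7 genes was in the 16 lists.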

How the data were processed

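ATAC-seq libraries of autopod chondrocytes were grouped by limb, element and digit from the labels. Per the submitters' processing notes, the tools included MACS3, Picard 2.9.0 and Bowtie2 2.3.4.1, on mm10; trimming, filters and any shift of cut sites were not stated. The authors deposited 1 peak list per group, called on pooled libraries per the peak names, with a selection by irreproducible discovery rate per the file names. Each deposited peak has a −log10 p-value, a score and a fold over background, which is a linear ratio. The labels give a target of at least 40 M reads a library, and the depth reached is unknown, so precision is limited by the number of lists. Within each list fold and −log10 p ranked peaks alike (rank correlation 1).

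From these lists, peaks sharing 1 bp were merged, the rule was applied, and percentiles of fold were taken within lists. Genes came from a RefSeq table (GRCm38.p6; 21887 protein-coding genes), which has no exons and strands for some genes only, so exons, introns and UTRs are not told apart. Promoter windows were matched for 17492 of these genes; the table used has none for chromosome 18. A permutation test of calls in the other lists had been planned; those calls entered the rule, so its p-values, with or without digit strata, are not reported and the difference is a description. The code that applies the rule was tested on simulated data (Python 3.11.15, numpy 2.4.6, pandas 2.3.3, scipy 1.17.1, matplotlib 3.10.9).

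The members and the gene lists were chosen with earlier results of these data known. Genes were named if they belonged to 1 of 16 lists (238 genes, all matched) and were nearest to a hand phalanx region, if they were among the 12 others with the most regions (at least 2), if their region was in all 3 hand phalanx lists and no other, or if they were among 8 landmarks. The alternatives were lists of equal length, the more significant 50% of every list, 500-bp summit windows, 50% cover of a region, each list left out, a 1 kb margin of absence, 3 of 3 hand phalanx lists and no other, autosomes alone and plain numbers of calls. Autosomes alone for the difference in calls was added after the data were seen.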

Additional observations from a re-analysis of the deposited data

How the results depend on the processing

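The rule gave 705 regions. It gave between 652 and 920 with 50% cover (920), lists of equal length (775), summit windows (918), a 1 kb margin (666) or autosomes alone (652), but 200 with the more significant 50% of each list and 7 for 3 of 3 hand phalanx lists and no other. With 1 list left out it gave 87 to 921, the lowest without hand phalanges III (87) and V (188). Of the 705 regions, 615 (87.2%) remained with 50% cover, 684 (97%) with summit windows, 666 (94.5%) with the margin, 295 (41.8%) at equal length and 2 (0.284%) in the more significant 50%. The share in all 3 hand phalanx lists (6.81%) was 9.57% with 50% cover, 3.5% in the more significant 50%, 10.2% at equal length, and 6.83 to 8.79% with 1 of the 9 other lists left out. The share within 1 kb of a gene end (3.4%) was 5.87% with 50% cover, 6.5% in the more significant 50%, and 3.04 to 5.75% with a list left out. The difference in extra calls between foot phalanx and metapodial lists (17.1 per 10000), a description without a test, was 8.65 in the more significant 50%, 29.5 with 50% cover, 20.6 at equal length and 20.4 with summit windows. It was 64 as a plain number and 2.82 to 33.3 with a list left out. The rule was applied again each time, so the number of regions behind the difference changed too. Why these values moved was not tested, beyond the fewer peaks or lists that each alternative keeps. A region missing from a list may lie under that list's end, so its absence there is not shown. No paired analysis was possible because each group has 1 pooled list, with no values per library.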

Other observations

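Other gene families were counted after values were seen. Predicted or otherwise unnamed genes (Gm and Rik symbols) were nearest to 71 hand phalanx regions (10.3%), against 4.32% of all regions with a gene. Zinc finger genes with Zfp symbols had 14 (2.02% against 1.73%), solute carriers 10 (1.45% against 2%), and collagens 2 (0.289% against 0.514%). Hox genes had 0 of their 61 regions in the set; over all regions with a gene 1.06% were in it, so these are too few to show a lack.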
